A study of Mus musculus with 31 samples.

Results

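The thalamus libraries of this mouse series differ in how much RNA they hold of 2 genes whose neurons lie in the neighbouring lateral hypothalamus. The 8 libraries richest in these transcripts were set against the 8 poorest, out of 31 libraries in all, and the other 15 libraries formed a middle that belonged to neither side. The genes are Pmch, which encodes the precursor of melanin-concentrating hormone (MCH), and Hcrt, which encodes the precursor of the orexins (hypocretins). For each library the TPM (a transcript level scaled by transcript length and depth) of all transcripts of both genes was summed, and the libraries were ranked by that sum whatever the maternal housing, so the sides were chosen by these measured values. Each library is bulk polyadenylated RNA of the thalamus of 1 animal, taken in adulthood at postnatal day 90. SIR offspring had mothers reared in social isolation, and control offspring had mothers that were not. No strain, litter or batch is given in the labels, and no allele or treatment of the offspring themselves is named.

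The rich side held 5 SIR and 3 control libraries, and the poor side held 4 SIR and 4 control libraries. By labelled sex the sides were less even. The rich side had 6 males (4 SIR, 2 control) and 2 females (1 SIR, 1 control), while the poor side had 3 males (1 SIR, 2 control) and 5 females (3 SIR, 2 control). The middle held 6 SIR and 9 control libraries (6 males, 9 females). One of the middle libraries, labelled SIR female 5, carries sex-linked transcripts that go against its label, and neither side contains it. Total estimated counts ran from 19.03 to 24.6 M (mega counts) in the rich libraries, with a median of 22.8 M, and from 13 to 25.5 M in the poor libraries, with a median of 23.9 M. The 2 shallowest libraries of the series, control female 31 (13 M) and control male 23 (14.8 M), are both on the poor side.

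MCH and orexin neurons lie intermingled in the lateral hypothalamic area and the adjoining zona incerta, below the thalamus, and almost no other cells in the brain make these peptides. MCH promotes feeding and REM sleep, and the orexins sustain wakefulness and arousal. Both cell groups send axons to the thalamus, where orexin acts through the receptors Hcrtr1 and Hcrtr2 and MCH through Mchr1. The transcripts themselves stay mostly in the cell bodies.

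Pmch reached 291 TPM in the lowest rich library, 394 TPM at the median and 632 TPM in the highest, against 5.19, 56.8 and 94.6 TPM in the poor libraries. Hcrt reached 123 TPM in the lowest rich library, 244 TPM at the median and 446 TPM in the highest, against 0.913, 7.55 and 13.7 TPM in the poor libraries. These values chose the sides, so they are a description and carry no test. The sum was highest in SIR male 13 (1017 TPM) and control female 20 (954 TPM), and lowest in SIR male 14 (6.88 TPM) and SIR female 12 (6.10 TPM). At the upper edge control male 25 (475 TPM) was just inside the rich side and control male 22 (353 TPM) just outside it. At the lower edge SIR female 10 (101 TPM) was just inside the poor side and SIR female 7 (111 TPM) just outside, so the poor side has no gap at its border. At the median Hcrt stood lower relative to Pmch outside the rich side, while the ranges of rich and middle libraries overlapped. This ratio is built from the values that chose the sides, so it too is a description. The ratio of Hcrt to Pmch TPM was 0.351 to 0.877 in the rich libraries (median 0.643), against 0.0679 to 0.294 in the poor libraries (median 0.147), and ran from 0.0228 to 0.511 in the middle (median 0.155). Over the housing groups the summed TPM had a median of 209 in SIR offspring (6.10 to 1017, n = 15) and 216 in control offspring (43.6 to 954, n = 16), so both housings spanned most of the range.

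**Figure D1:**
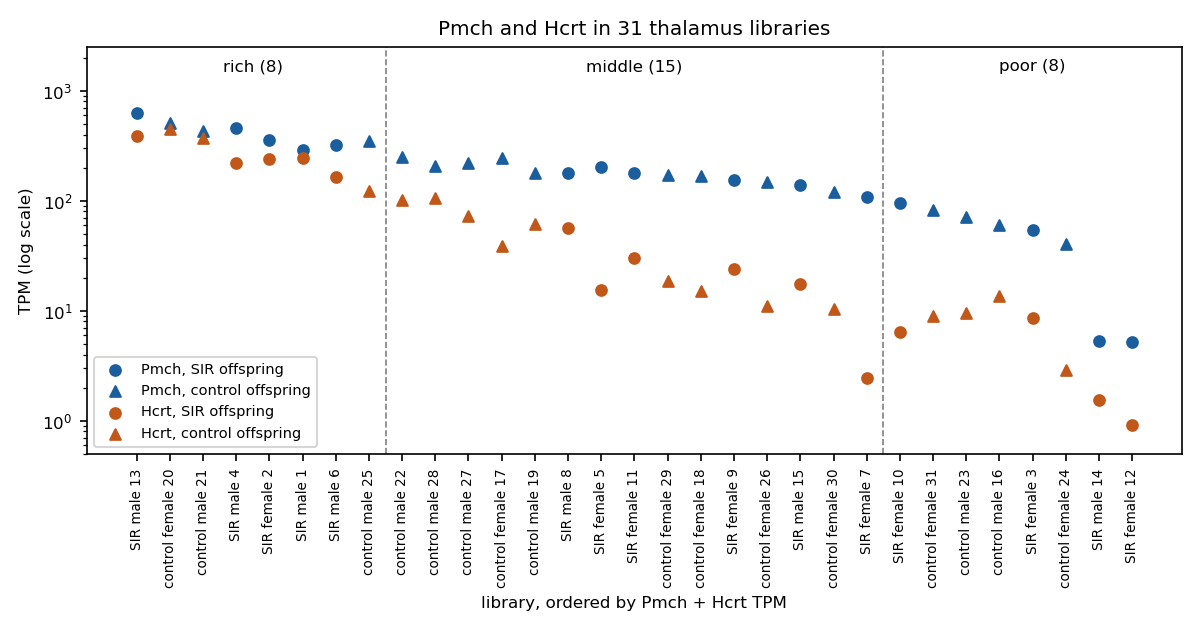
Pmch and Hcrt TPM (log scale) in each of the 31 libraries, ordered from the highest to the lowest sum, with circles for SIR and triangles for control offspring and dashed lines at the borders of the rich, middle and poor libraries. Pmch spans 5.19 to 632 TPM, Hcrt spans a wider range of 0.913 to 446 TPM, and both housings occur on each side.

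Sequence just upstream of the start sites is printed for 4 peptide genes, both markers and Pomc and Npvf, which are described below. Of 7 windows examined these are the 4 that hold TATAAA, and they were picked for it. The windows of Cartpt, Six6 and Vax1 hold neither motif named below and are not printed. Each line gives the 250 bases before the start site, 5′ to 3′ on the gene's strand, from RefSeq on build GRCm38.p6. The windows are chr10:88090822-88091071 on the plus strand for Pmch, chr11:100762932-100763181 on the minus strand for Hcrt, chr12:3954695-3954944 on the plus strand for Pomc and chr6:50654446-50654695 on the minus strand for Npvf. Capitals mark TATAAA, the core of a TATA box, and TAATTA, the core bound by many homeodomain proteins; both strands were searched and these motifs do not overlap in these windows.
Pmch: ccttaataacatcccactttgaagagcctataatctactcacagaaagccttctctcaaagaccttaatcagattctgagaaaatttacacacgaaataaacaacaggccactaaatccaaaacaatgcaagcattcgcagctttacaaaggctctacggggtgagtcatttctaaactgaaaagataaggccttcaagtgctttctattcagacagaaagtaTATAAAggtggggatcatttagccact
Hcrt: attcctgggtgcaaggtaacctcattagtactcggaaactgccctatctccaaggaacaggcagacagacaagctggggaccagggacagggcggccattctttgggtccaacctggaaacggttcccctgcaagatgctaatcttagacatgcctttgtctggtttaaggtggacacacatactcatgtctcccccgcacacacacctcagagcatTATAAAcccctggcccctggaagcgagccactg
Pomc: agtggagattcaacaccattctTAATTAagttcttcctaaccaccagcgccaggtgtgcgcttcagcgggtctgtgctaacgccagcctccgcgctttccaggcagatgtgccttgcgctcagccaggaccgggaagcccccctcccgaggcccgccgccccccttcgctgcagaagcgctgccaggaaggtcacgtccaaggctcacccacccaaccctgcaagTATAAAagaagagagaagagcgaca
Npvf: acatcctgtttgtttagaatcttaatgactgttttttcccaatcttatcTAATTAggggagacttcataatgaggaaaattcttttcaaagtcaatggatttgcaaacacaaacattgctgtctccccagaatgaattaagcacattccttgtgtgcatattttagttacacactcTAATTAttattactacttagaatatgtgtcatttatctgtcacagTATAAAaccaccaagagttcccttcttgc
The first base of TATAAA lies 27 bases before the start site in Pmch, 33 in Hcrt, 25 in Pomc and 29 in Npvf. TAATTA occurs at 228 bases before the start in Pomc and at 201 and 74 in Npvf. Among promoter windows of this length, TATAAA on either strand was present in 30.3% of those of the neuropeptide precursor genes (10 of 33 windows, Pmch and Hcrt included), in 7.19% of those of genes called higher in the rich libraries, 8.67% of those of genes called lower, 6.59% of those of all genes tested and 12.4% of all 32851 windows. TAATTA was present in 15.2%, 1.87%, 3.38%, 2.57% and 4.84% of the same sets, in that order. A match describes the letters of the window and is no evidence of binding.

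The transcriptome of the rich libraries differed from that of the poor ones well beyond Pmch and Hcrt. Of 14456 genes tested, 1101 (7.62%) differed, of which 664 were higher in the rich libraries (4.59% of genes tested) and 437 were lower (3.02%), by edgeR's quasi-likelihood test with Benjamini-Hochberg adjustment at 0.05, with Pmch and Hcrt left out of the test. The changes upward were the larger ones. The median absolute log2 fold change (rich minus poor) was 0.53 among the higher genes and 0.26 among the lower ones, and 172 higher but only 2 lower genes passed 1 on the log2 scale. The 2 were Ankub1 (-1.05 ± 0.24, SE) and a gene model without a proper symbol. In 143 genes (0.989% of genes tested) every rich library lay above every poor one, and in 23 genes (0.159%) every rich library lay below. The median log2 fold change over all genes was -0.01. No treatment separates the sides, which were set by 2 transcripts of the same RNA, so a call says that a gene followed those transcripts across these 16 libraries. In bulk RNA, more cells of a type and more RNA per cell cannot be told apart.

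Genes of the ventromedial and arcuate hypothalamus, which lie medial to the MCH and orexin neurons, were among the strongest. Nr5a1 (steroidogenic factor 1), the transcription factor that defines the ventromedial nucleus, stood at 1.46 CPM (counts scaled to library totals, as for TPM but not by length) in the lowest rich library, 7.45 CPM at the median and 18 CPM in the highest, against 0, 0 and 0.207 CPM in the poor libraries. All rich libraries expressed it, and 6 of the 8 poor libraries held no count. Pooled over each side there were 1423 counts in rich and 4 in poor libraries, a ratio of 340 after scaling to library totals (exact 95% interval 132 to 1250, counting error only). The fitted log2 fold change was 8.07 ± 0.75 (adjusted p = 0.000119, edgeR), a value that depends on the prior count with so many libraries at 0. Pomc, the precursor of alpha-melanocyte-stimulating hormone and beta-endorphin in arcuate neurons that curb feeding, ran from 1.16 to 39.3 CPM in rich libraries (median 7.57), against 0.400 to 2.27 CPM in poor libraries (median 0.895). Its ranges overlapped, with 6 of 8 rich libraries above every poor one, and the log2 fold change was 3.61 ± 0.76 (adjusted p = 0.0129). Fezf1, a transcription factor of the developing ventromedial nucleus, was higher by 3.46 ± 0.69 (adjusted p = 0.0102), with 2.24 to 19.6 CPM in rich and 0 to 2.40 CPM in poor libraries. Nkx2-1, which specifies the ventral hypothalamus, was higher by 2.53 ± 0.42 with no overlap (1.88 to 9.52 CPM in rich, 0.124 to 1.60 CPM in poor libraries). Of 15 genes on the list for these nuclei, 12 were tested, and 7 were higher and none lower, against 4.59% and 3.02% of all genes, with a median log2 fold change of 1.26. The remaining called members were Tac2 (neurokinin B, 1.81), Ghrh (growth hormone-releasing hormone, 1.67) and the growth hormone receptor gene Ghr (0.37), while Npy, the orexigenic peptide of arcuate neurons and of interneurons elsewhere, gave 0.18 ± 0.14 (adjusted p = 0.467). Of the 12, only 7 would have passed the filter on low counts on the poor libraries alone, and 2 of the 7 higher genes are among those, so the count and median describe the tested members and are not support for a difference.

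Anterior and preoptic genes behaved likewise in part. Six6, a homeodomain factor of the ventral forebrain and suprachiasmatic nucleus, ran from 0.854 to 3.67 CPM in rich libraries (median 2.66), against 0 to 0.437 CPM in poor libraries (median 0.0207). The groups did not overlap, and the log2 fold change was 4.22 ± 0.56 (adjusted p = 0.000746, edgeR). Vax1, a ventral forebrain homeodomain factor, ran from 1.22 to 3.16 CPM in rich and from 0 to 0.656 CPM in poor libraries, again without overlap (2.82 ± 0.35, adjusted p = 0.000346). Brs3, the bombesin-like receptor active in energy balance, was higher by 1.63, and the relaxin-3 receptor gene Rxfp3 by 0.83. Of 15 genes listed for the paraventricular, supraoptic and preoptic hypothalamus, 12 were tested and 3 were higher (Six6, Brs3 and Rxfp3; 4.59% of all genes were), with a median of 0.69. Only 4 of the 12 would have passed the filter on the poor libraries alone, 1 of them higher. The count and median therefore describe the tested members and are not support for a difference. The count rests on few libraries and was 1 without control female 20, SIR male 4, SIR male 14 or control female 24. The magnocellular hormones spread so widely that no call was made. Avp (vasopressin) ran from 20.4 to 75.9 CPM in rich libraries, against 0.660 to 34.2 CPM in poor libraries (1.86 ± 0.75, adjusted p = 0.138), and Oxt (oxytocin) from 25.1 to 160 CPM, against 0.390 to 180 CPM (0.53 ± 0.93, adjusted p = 0.778). On the poor side this spread was a split between libraries. SIR female 3, SIR female 10 and SIR female 12 held 180, 155 and 149 CPM of Oxt. In the same order they held 28.6, 30.2 and 34.2 CPM of Avp. Every other poor library lay below every rich one in both genes. These are all 3 SIR females of the poor side, and SIR female 12 is the library lowest in Pmch and Hcrt. Whether the split follows the labels was not tested.

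Of the genes listed for the lateral hypothalamus besides the markers, 5 of 12 rose, against 4.59% of all genes tested. Cartpt, the precursor of the peptide CART that MCH neurons co-express, ran from 21.1 to 37.5 CPM in rich libraries (median 25.2), against 1.70 to 7.87 CPM in poor libraries (median 5.19). Every rich library lay above every poor one, and with a log2 fold change of 2.45 ± 0.24 (5.46-fold, adjusted p = 0.000145) Cartpt had the second smallest p of all genes with a proper symbol, after Nr5a1. Pdyn, the precursor of dynorphin that orexin neurons co-release, ran from 21.9 to 70.8 CPM in rich libraries, against 8.29 to 22.7 CPM in poor libraries (1.39 ± 0.26, adjusted p = 0.00733). Npvf, the precursor of RFamide-related peptides in the dorsomedial hypothalamus, was low throughout, with 0.782 to 2.71 CPM in rich and 0 to 0.721 CPM in poor libraries (2.59 ± 0.57, adjusted p = 0.0118). Gal (galanin) was higher by 1.38 ± 0.28, and the neurokinin 3 receptor gene Tacr3 by 0.91 ± 0.19. These 5 were the called members among 12 tested of 13 listed, none was lower, and the median was 0.91. Of the 12, 9 would have passed the filter on the poor libraries alone, 4 of them higher. Without control female 31 the count was 8 of 12. Trh (thyrotropin-releasing hormone) missed the threshold at 1.48 ± 0.46 (adjusted p = 0.0642), and Lhx9, a transcription factor of orexin neurons that the thalamus itself also expresses, lay at -0.42 ± 0.17 (adjusted p = 0.128).

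The receptors of the marker peptides, which sit on the target cells, were not called. Hcrtr1 ran from 2.08 to 4.76 CPM in rich and from 0.536 to 4.80 CPM in poor libraries (0.99 ± 0.35, adjusted p = 0.0928). Hcrtr2 gave 0.50 ± 0.34 (adjusted p = 0.392) and Mchr1 0.09 ± 0.09 (adjusted p = 0.586). Without control female 31, 2 of the 3 passed.

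**Figure D2:**
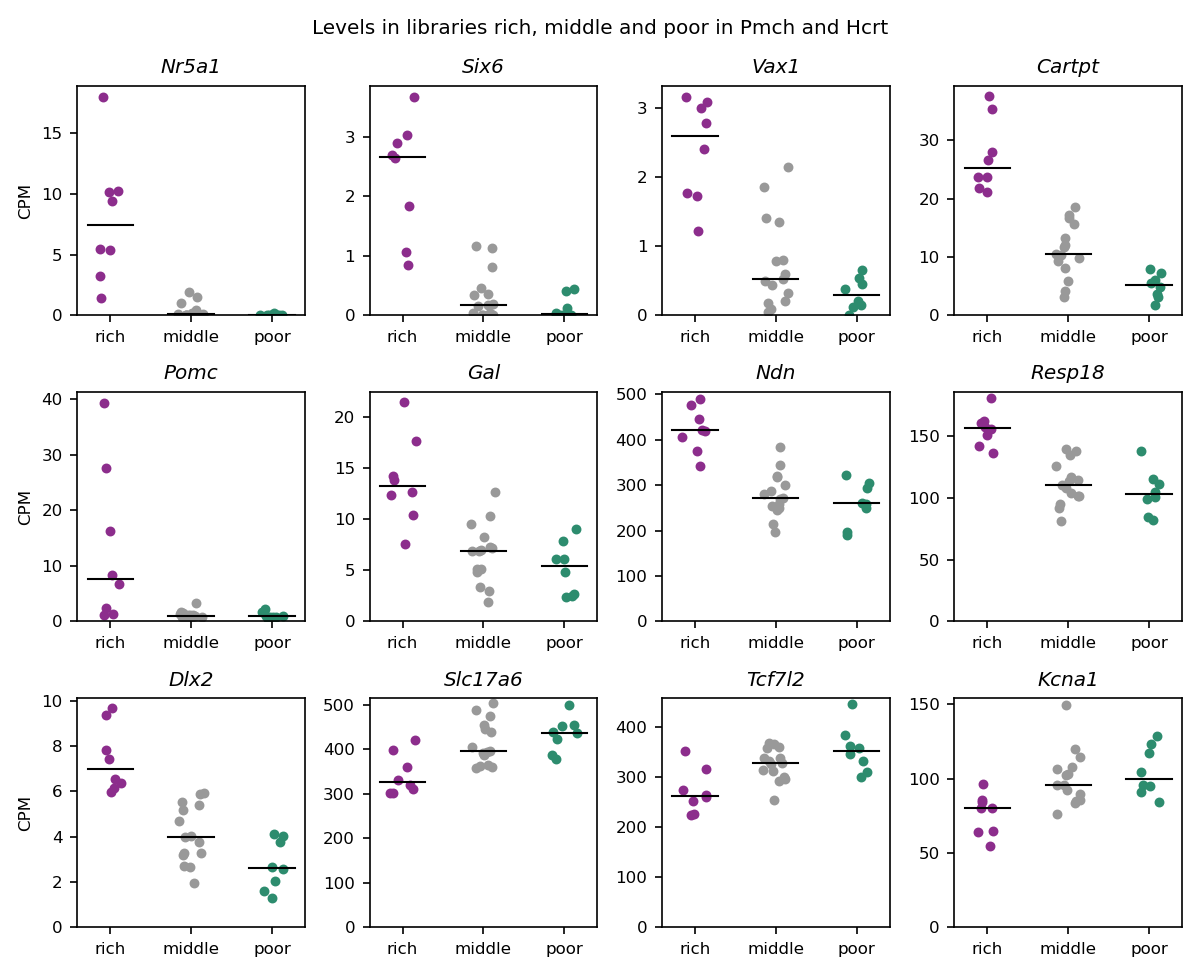
CPM of 12 genes in the 8 rich, 15 middle and 8 poor libraries, each point a library and each bar a median, with axes starting at 0. Nr5a1, Six6, Vax1, Cartpt, Ndn and Dlx2 show no overlap between rich and poor libraries, Pomc, Gal and Resp18 overlap, and Slc17a6, Tcf7l2 and Kcna1 are lower in the rich libraries by a smaller fraction of their level.

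Genes expressed across many hypothalamic nuclei rose most uniformly. Of 21 hypothalamus-enriched genes, all tested, 20 were higher and none lower, with a median log2 fold change of 1.13, against 4.59% of all genes higher and a median of -0.01. The list was drawn up with earlier results of these data known. Of its members, 20 of the 21 would have passed the filter on the poor libraries alone, and these are the 20 that were called. Their summed level ran from 4314 to 5623 CPM in rich libraries and from 1964 to 4098 CPM in poor libraries, without overlap. Ndn (necdin), an imprinted gene of the Prader-Willi region, ran from 343 to 490 CPM in rich libraries (median 420), against 189 to 322 CPM in poor libraries (median 260), a log2 fold change of 0.71 ± 0.10 (1.63-fold, adjusted p = 0.00145). Its imprinted neighbour Magel2 was higher by 1.47 ± 0.23. The called members also included Asb4 (1.505), Nnat (0.97), Peg10 (0.95), Dlk1 (1.13), Peg3 (0.35) and Nap1l5 (0.35), which are known to be imprinted. Imprinted genes were not listed or counted as a group. Hap1, the huntingtin-associated protein abundant in hypothalamus, ran from 376 to 516 CPM in rich libraries, against 94.7 to 267 CPM in poor libraries (1.08 ± 0.16, adjusted p = 0.00236). Other called members were Resp18 (0.58), Scg2 (secretogranin II, a secretory granule protein, 0.51) and the exocytosis regulator gene Baiap3 (1.43). Irs4, an adaptor of insulin and leptin signalling, gave 1.76 ± 0.41, the orphan receptor gene Gpr101 1.23 ± 0.30 and Ngb (neuroglobin) 1.38 ± 0.24. Calcr, the calcitonin receptor gene, was the member not called (1.32).

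Precursor and receptor genes of neuropeptides, in lists that overlap those above, were higher in part. Of 37 precursor genes, 23 were tested, 9 were higher and none lower (median 0.91, against 4.59% of all genes higher), and 15 of the 23 would have passed on the poor libraries alone, 6 of them higher. Besides those named above, these included Penk (enkephalin, 1.09 ± 0.22) and Tac1 (substance P, 1.25 ± 0.32). Of 30 receptor genes for feeding signals and peptides, all tested, 8 were higher and none lower (median 0.54, against the same 4.59%). Of the 30, 25 would have passed on the poor libraries alone, 6 of them higher. Crhr2, the receptor for urocortins, was higher by 2.46 ± 0.37 without overlap (1.25 to 3.97 CPM in rich, 0 to 0.704 CPM in poor libraries). The vasopressin receptor gene Avpr1a was higher by 1.95 ± 0.30. Npy2r (1.12), the kappa opioid receptor gene Oprk1 (0.83), Sstr2 (0.65), Glp1r (0.59) and the nociceptin receptor gene Oprl1 (0.37) were higher as well. This count was 14 without control female 31. Among hormone receptors, 4 of 11 were higher (median 0.17, against 4.59% of all genes): Esr1, the estrogen receptor alpha gene (1.20 ± 0.34), Rxrg (1.02), Ghr and the thyroid hormone receptor gene Thra (0.25). None of the 4 was called without SIR male 4 or without control female 24.

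Transcription factors of the hypothalamus and subthalamus gave 8 higher and no lower genes among 24 tested of 30 listed (median 0.48, against 4.59% of all genes higher). Only 12 of the 24 would have passed on the poor libraries alone, 2 of them higher. Hmx3, a homeodomain factor of hypothalamic neurons, was higher by 3.28 ± 0.44, Onecut3 by 2.14 ± 0.29, Lhx5 by 0.88 ± 0.22 and Onecut2 by 0.48 ± 0.12. GABA neurons of the zona incerta, which adjoins the lateral hypothalamus, were listed together with those of the thalamic reticular nucleus. Of 19 genes listed for them, 5 were higher and none lower (median 0.48, against 4.59% of all genes higher). All 5 would have passed on the poor libraries alone. In this list 3 fold changes were negative (lowest -0.41). Its summed level overlapped, at 730 to 1566 CPM in rich libraries (median 1269) and 569 to 1641 CPM in poor libraries (median 1059). Dlx2, a homeodomain factor of GABA neuron development, ran from 5.98 to 9.69 CPM in rich libraries, against 1.29 to 4.10 CPM in poor libraries (1.42 ± 0.21, adjusted p = 0.00145). Dlx1 (1.12), Dlx6 (0.78) and the endopeptidase gene Ecel1 (1.19) were higher too. GABA receptor subunits moved in both directions. Gabre (1.54 ± 0.26) and Gabrq (1.45 ± 0.30), subunits largely of hypothalamic and brainstem receptors, and Gabra5 (0.76 ± 0.19) were higher, while Gabra4, a subunit of thalamic extrasynaptic receptors, was lower (-0.49 ± 0.10, adjusted p = 0.00993). Over all 20 genes of GABA transmission 3 were higher and 1 lower (median 0.07, against 4.59% and 3.02% of all genes), and without control female 31 the number called was 10.

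Lists for other neighbouring structures had medians near 0, and their counts, to be read against 4.59% higher and 3.02% lower over all genes, rested on few libraries. Of 15 striatal and pallidal genes 4 were higher (Penk, Rgs9 0.94, Gpr6 1.01 and Rxrg), with a median of 0.04 and a summed level of 308 to 480 CPM in rich and 303 to 388 CPM in poor libraries. Leaving out SIR male 13, SIR male 4, SIR male 1, SIR male 6, control female 24 or control male 23 left 2 called, and Gpr6 and Rxrg lost their call each time. Of 11 midbrain and monoamine genes 3 were higher: Ddc (0.82) and Th (1.37), enzymes of dopamine synthesis that the hypothalamus also uses, and Sox14 (1.80), a transcription factor of thalamic interneurons, with a median of -0.01. Th and Sox14 lost their call without SIR male 4 or control female 24, which left 1, and 5 were called without control female 31. Sox14 lost its call in 18 of the alternative settings. Among 15 cortical and hippocampal genes, Rasgrf2 (0.91) and Nptx1 (1.11) were higher and Mef2c (-0.37) lower (median -0.02), with 1 to 4 called when 1 library was left out (1 without SIR male 13, SIR male 4, SIR male 1, SIR male 6, control female 24 or control male 16). Among 11 habenular genes, Tac2 and Tac1 were higher and Etv1 (-0.41) lower. The striatal and habenular lists share called members (Penk, Tac1 and Tac2) with the list of neuropeptide precursors. On the poor libraries alone 13 of the 15 striatal and pallidal genes would have passed the filter, 3 of them higher. So would 7 of the 11 midbrain and monoamine genes, 2 of them higher. Of the cortical and hippocampal genes 12 of 15 would have passed and of the habenular genes 9 of 11, with 2 higher in each. The part of these regions in the result was not tested.

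Of 13 tested genes of ependyma and tanycytes, cells that line the ventricles, 6 were higher and none lower (median 0.66, against 4.59% of all genes higher), 2 had negative fold changes (lowest -0.54), and 4 of the 6 would have passed on the poor libraries alone. Gpr50, a melatonin-related receptor of tanycytes, ran from 1.88 to 14.2 CPM in rich libraries, against 0.124 to 1.57 CPM in poor libraries (3.04 ± 0.51, adjusted p = 0.00493). The cilium genes Rsph1 (1.37) and Foxj1 (0.66) and the chemerin gene Rarres2 (0.73) were higher. The summed level of the list overlapped, at 205 to 270 CPM in rich libraries (median 223) and 213 to 239 CPM in poor libraries (median 226). The fold change of the choroid plexus gene Ttr rested on a single library. Ttr (transthyretin) ran from 0.535 to 1566 CPM in rich libraries with a median of 1.94, against 1.997 to 76.0 CPM in poor libraries with a median of 13.6. The highest value is that of control female 20, and the log2 fold change of 2.92 ± 1.65 (adjusted p = 0.299) turned to -3.71 without it. None of 10 tested genes of the choroid plexus list was called (2 without control female 20). On all 16 libraries 9 of the 10 fold changes were positive, with a median of 1.17. Only 7 of the 10 would have passed on the poor libraries alone. The summed level of the list had a lower median in rich libraries (318 CPM, 287 to 3203) than in poor ones (405 CPM, 301 to 505). Clic6 of this list stood at 68.8 CPM in control female 20 and at 13.5 CPM or less in the other rich libraries. How far the list median rests on that library was not tested.

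**Figure D3:**
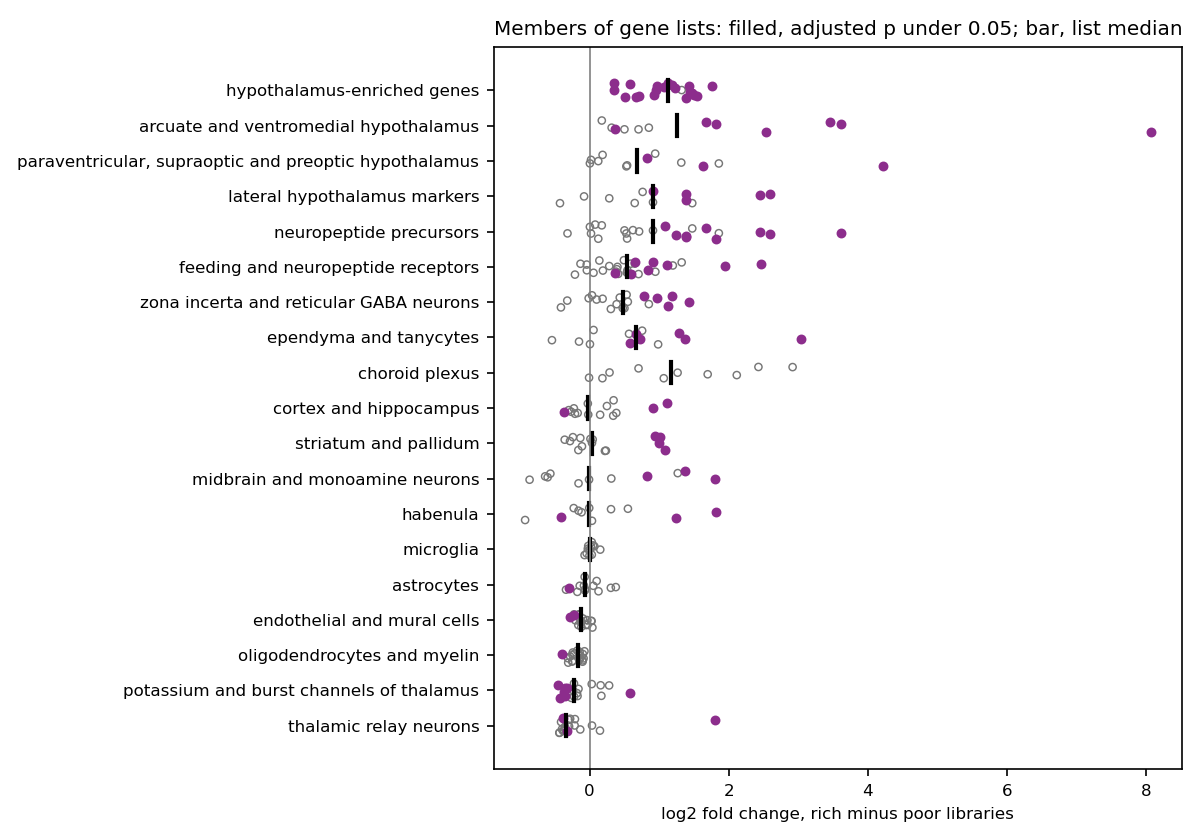
Log2 fold change (rich minus poor) of the tested members of 19 gene lists, one row per list, with filled points for members with an adjusted p under 0.05, open points for the others and a bar at the list median. The medians are 1.13 for hypothalamus-enriched genes, -0.34 for thalamic relay neurons and 0.01 for microglia.

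Among genes of thalamic relay neurons, Slc17a6 and Tcf7l2 were lower in the rich libraries by small amounts. Slc17a6 (VGLUT2), the glutamate transporter of thalamic relay neurons, ran from 301 to 421 CPM in rich libraries (median 325), against 377 to 499 CPM in poor libraries (median 437). The ranges overlapped, 6 of 8 rich libraries lay below every poor one, and the log2 fold change was -0.33 ± 0.07 (adjusted p = 0.0125, edgeR). Tcf7l2, the transcription factor that maintains thalamic neuron identity, ran from 223 to 352 CPM in rich and from 299 to 446 CPM in poor libraries (-0.38 ± 0.09, adjusted p = 0.0203). Rora, a nuclear receptor of relay neurons, gave -0.43 ± 0.13 and missed the threshold (adjusted p = 0.0562). Of 20 relay neuron genes, all tested, 17 had negative fold changes, but 2 were called lower (against 3.02% of all genes) and 1 higher (Sox14), with a median of -0.34. Without control female 31, 10 were called, and DESeq2 called 10 on all 16 libraries. Every library of both sides held relay neuron transcripts, with a summed level of 3864 to 5456 CPM in rich and 4385 to 6840 CPM in poor libraries. Of 18 genes of channels that shape thalamic firing, 6 were lower and 1 higher, against 3.02% and 4.59% of all genes (median -0.22). Kcna2 (-0.32), Kcna1 (-0.45) and Kcnc2 (-0.35), which encode subunits of potassium channels, were lower, while the T-type calcium channel gene Cacna1h was higher (0.58 ± 0.13). The number called in this list was 2 without SIR male 4 and 3 without control female 20, SIR male 1 or control female 24.

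The lower genes with the smallest p were shifted by small amounts. Ado, a thiol dioxygenase, ran from 60.6 to 70.9 CPM in rich libraries, against 72.9 to 89.5 CPM in poor libraries (-0.30 ± 0.05, adjusted p = 0.00236). Nacc2, a transcriptional repressor, also showed no overlap (-0.25 ± 0.04). The glial potassium channel gene Kcnj10 (-0.30), the glial glutamate transporter gene Slc1a2 (-0.29), the receptor gene Tnfrsf19 (-0.30), the synaptic vesicle fusion gene Snap25 (-0.30), Zfp804a (-0.42) and Prox1 (-0.42), a homeodomain factor of thalamic neurons, were lower, as were Ipo11 (-0.28), Trim37 (-0.25), Kctd21 (-0.24) and Rnf141 (-0.22). Other lower genes with larger changes were Rtkn2 (-0.59), Ptpn4 (-0.58), the stem cell factor gene Kitl (-0.58), Zfp750 (-0.55), Sptssb (-0.53), Trim17 (-0.53) and Mctp2 (-0.51). Genes called lower had longer transcripts, with a median effective length of 1.51 times that of all genes tested, against 0.992 times for genes called higher, and across genes, which are not replicates, the Spearman correlation of fold change with length was -0.155. On log2(TPM + 1), which is scaled by length, limma-trend called 766 higher and 29 lower genes (96.4% higher, against 60.3% by edgeR). That fit differs from edgeR in test and normalization as well as in scale, and their parts were not separated.

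Of the glial, vascular and immune lists, few members were called. None of 12 microglial genes was called (median 0.01) and none of 9 oligodendrocyte precursor genes (median -0.15, 8 negative). Of 20 oligodendrocyte genes 1 was lower (3.02% of all genes were), Ugt8a (-0.39 ± 0.11), with a median of -0.16 and all 20 values negative, among them Mbp (-0.13, adjusted p = 0.386). Ugt8a lost its call in 20 of 32 alternative settings, and with 1 library left out the list had no call in 12 of 16 fits and up to 4 in the others (4 without control male 16, 3 without control female 20, 2 without SIR female 3). Of 13 astrocyte genes 1 was lower (Slc1a2, median -0.07), and of 18 endothelial and mural genes 2 were (Tek -0.28 and Flt1 -0.23, median -0.12, 15 negative), with 1 left in 8 of the 16 fits that leave out 1 library. None of 17 immediate early genes was called (median -0.29), with Egr1 at -0.35 ± 0.13 (adjusted p = 0.115).

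Other genes of small p on the higher side do not belong to the lists. Entpd6, a nucleotidase, ran from 62.6 to 73.0 CPM in rich libraries, against 43.2 to 55.2 CPM in poor libraries (0.41 ± 0.05, adjusted p = 0.000337). Sytl4 (granuphilin), which docks secretory granules, ran from 9.28 to 23.8 CPM in rich and 1.29 to 6.29 CPM in poor libraries (2.46 ± 0.28). Arhgap6 (1.32 ± 0.16), Vstm2l (0.76 ± 0.10) and Amh, the anti-Mullerian hormone gene (1.46 ± 0.20), also showed no overlap, nor did Col6a5 (2.87 ± 0.46), while Pafah1b3 (0.99 ± 0.13) overlapped.

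The same genes were also followed along the same sum in the 15 middle libraries, which were not in the comparison of rich and poor. For each gene the slope of its level per doubling of summed Pmch and Hcrt TPM was fitted over the middle, where the sum runs only from 111 to 353 TPM. No gene passed an adjusted p of 0.05 there by edgeR (0%), with 845 at an unadjusted p under 0.05, and limma-voom also called 0 (851 unadjusted). Without terms for the labels, most directions carried over. Of the 664 genes higher in rich libraries 629 (94.7%) had a positive slope, against 49.1% of all genes, and 190 (28.6%) had a positive slope with an unadjusted p under 0.05, against 3.17% of all genes. Of the 437 lower genes 426 (97.5%) had a negative slope, against 50.9% of all genes, and 76 (17.4%) did so with an unadjusted p under 0.05, against 2.68%. The opposite sign with such a p occurred in 1 gene, the kinetochore gene Cenpf (slope -0.69). The middle slopes are confounded in part with the labels. Every middle library from 239 TPM upward was a control, and all 4 control males of the middle are among those. With terms for labelled housing and sex, 555 of 664 and 373 of 437 genes had the same sign. Only 22 and 12 of them had an unadjusted p under 0.05, against 340 of 14456 over all genes in both directions together. The share of all genes with each sign was not counted in that fit. Genes are not independent of each other, so these shares are descriptions. Among hypothalamus-enriched genes all 21 slopes were positive without those terms, 16 of them with an unadjusted p under 0.05, and the median was 0.46. That list was drawn up with earlier results of these data known, so its slopes are a description and no independent test. Single genes with steep slopes were Nr5a1 (3.24 per doubling), Hmx3 (2.85), Six6 (2.08), Gpr50 (1.61) and Crhr2 (1.52). Cartpt had a slope of 0.78 and Ndn of 0.30.

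**Figure D4:**
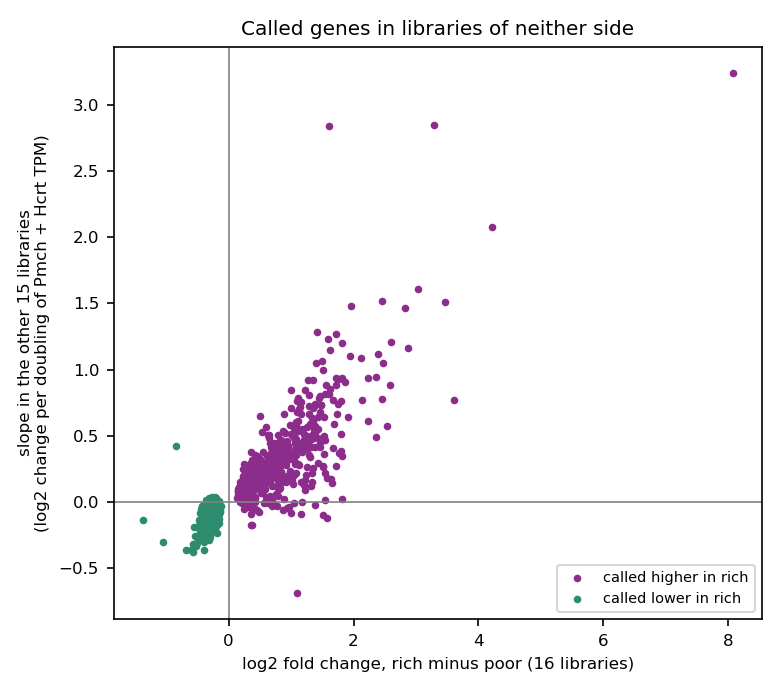
Slope in the 15 middle libraries (log2 change per doubling of Pmch and Hcrt TPM) against the log2 fold change between rich and poor libraries, for the 664 genes called higher and the 437 called lower. The slopes shown are without terms for labelled housing and sex, and most points lie in the quadrants of equal sign (629 and 426 genes). With those terms, not shown, 555 and 373 genes had the same sign.

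Because the sides differ in labelled sex and slightly in housing, the comparison was repeated within each. All 1101 called genes kept their direction within SIR offspring (5 rich, 4 poor), within control offspring (3 rich, 4 poor), within labelled males (6 rich, 3 poor) and within labelled females (2 rich, 5 poor), a direction that their choice on the pooled libraries favours. The genes called were 178 higher and 96 lower within SIR, 86 and 9 within control, 876 and 647 within males, and 1 (Nr5a1) and 0 within females. The log2 fold change of Cartpt was 2.42 within SIR, 2.50 within control, 2.62 within males and 2.42 within females, and that of Ndn was 0.71, 0.69, 0.86 and 0.64, in the same order. With housing and sex as terms over all 16 libraries 912 genes were higher and 530 lower. The difference in effect between SIR and control offspring reached an adjusted p of 0.05 in 0 genes (783 at an unadjusted p under 0.05, edgeR), and that between males and females in 0 genes (781 unadjusted). None of the 7 Y-linked genes tested was called. In the number of calls single libraries mattered. Without SIR male 4, 412 genes were higher and 131 lower, without control female 24, 436 and 194, without SIR male 14, 499 and 212, and without SIR male 1, 509 and 221.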

How the data were processed

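Thalamic RNA of 31 mice was sequenced, and per the submitters' processing notes reads were checked with FastQC and quantified with kallisto on build GRCm39, with no versions given. Per the file headers, the authors deposited an estimated count and a TPM for each of 105878 transcripts. Whether strand was used is not stated, so overlapping genes are uncertain. Here 104949 transcripts were matched to genes by identifier (GENCODE M21), counts were summed per gene and rounded, and genes were kept by filterByExpr over the 16 compared libraries. Rich minus poor was tested with edgeR 4.0.16 (R 4.3.3; TMM, robust quasi-likelihood; adjusted p under 0.05), with Pmch and Hcrt in library totals but not tested, and the script was checked on simulated counts. SE is the log2 fold change over the square root of F. CPM uses TMM-scaled totals. The middle 15 libraries were fitted with a slope. Alternatives used other scalings, filters, DESeq2 1.42.0, limma 3.58.1, covariates, rankings and left-out libraries. Replicates are animals whose litters are unknown, so p-values measure the spread between these libraries. Named genes were the 12 per direction of smallest p, the 8 of largest change with a mean of at least 1 CPM, called members of hypothalamic and peptide lists and up to 4 of each other list, with proper symbols. Not every selected gene is reported here. Avp, Oxt, Trh, Npy, Lhx9, Rora, Calcr and Cenpf were named after their values were seen. The sides, members and lists were chosen with earlier results of these data known.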

Additional observations from a re-analysis of the deposited data

Results flagged for a closer look

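Among 106 called genes the 8 rich and the 8 poor libraries were each examined for a library far from the rest of its side (212 groups), by Dixon's test at its 95% critical value. Chance flags about 1 in 20 such groups, and 16 values were flagged, 12 of them in 2 libraries. Control female 20 stood highest of the rich libraries in Rsph1 (8.17 CPM, next 5.31), Foxj1 (34.0, next 21.9), Penk (75.7, next 47.0), Npy2r (16.8) and Nptx1 (208, next 109). It is also the library with 1566 CPM of Ttr. Control female 31, the shallowest library, stood highest of the poor libraries in Onecut3 (1.84 CPM, next 0.683), Scg2 (604, next 460), Sstr2 (7.21, next 4.48), Rasgrf2 (169, next 99.0), Peg3 (993, next 744), Dlk1 (144, next 69.8) and Nptx1 (115, next 50.4). The other flagged values were single ones. Control male 23 held the highest poor value of Nr5a1 (0.207 CPM, next 0.0437), SIR female 12 that of Tac2 (6.80, next 2.32), SIR male 14 the lowest poor value of Npy2r (1.24, next 3.98), and SIR male 4 the highest rich value of Asb4 (22.5, next 14.2).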

How the results depend on the processing

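All 1101 called genes that were tested kept their direction under every scaling, filter, count model, covariate and ranking tried and with any 1 library left out; on log2(TPM + 1) 1097 of 1101 did, the others being Tbl1xr1, Sec63, Acad9 and Abca8a. Ranking by Pmch alone or by CPM gave the same sides. The number called was less stable. It was 1706 with DESeq2 (777 lower), 1798 with limma-voom and sample weights (1021 higher, 777 lower), 29 lower on log2(TPM + 1) and 2037 at an adjusted p of 0.1. Without the 2 libraries lowest in Pmch and Hcrt 632 genes were called (181 lower, 71.4% higher). Those alternatives, like leaving out the 2 shallowest libraries (883 higher, 590 lower) or fitting within housing or sex, were partly added after the data were seen. The within-group fits use fewer libraries and called 274 genes within SIR (178 higher, 96 lower), 95 within control (86, 9) and 1 within labelled females (1, 0). Of the members of hypothalamic and peptide lists, 48 were called, against 21, 25 and 1 in these fits. With 1 library left out, the number called ran from 543 to 1608, from 412 to 951 higher and from 131 to 657 lower. The lower count was smaller on leaving out SIR male 13 (266), control female 20 (243), control male 21 (291), SIR male 6 (218) or control male 16 (287), and was 657 without control female 31. The causes were not tested. Of genes not called, Ttr changed sign with DESeq2 (-2.69), limma-voom (-2.54), log2(TPM + 1) (-1.46), within SIR (-4.13), within labelled males (-0.99), and with control female 20 left out (-3.71 to 3.40 over all left-out libraries), and Oxt within SIR (-0.22) and within labelled females (-0.05). Of the 106 called genes, 54 kept their call in all 32 settings other than the within-group fits, and Amh, Hmx3, Npvf and Six6 did in the 31 that tested them (not the filter of 1 CPM in 8 libraries). No paired analysis was possible because library numbers are unique to each animal.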

Other observations

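Genes of the X chromosome were called higher at a larger share than genes in general. Of 493 tested, 61 were higher in rich libraries (12.4%, against 4.59% of all genes) and 14 lower (2.84%, against 3.02%). With labelled housing and sex as terms 71 were higher (14.4%) and 16 lower (3.25%). That fit also called more genes in general, with 912 higher and 530 lower of all 14456. Among labelled males alone 71 were higher (14.4%) and 9 lower (1.83%), beside 876 higher and 647 lower of all 14456. Sytl4, Arhgap6, Gabre, Gabrq, Gpr50, Irs4, Gpr101 and Zcchc12, several of them hypothalamus-enriched, are X-linked members of the higher set. This was noticed in the data and no test was made of it.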
